A study of Mus musculus with 5 samples.

Results

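The Hippo kinase core and its upstream regulators were followed at the RNA level in lenses of mice aged 14 days (P14). They were taken as the rows of the deposited table whose symbol is Stk4, Stk3, Sav1, Lats1, Lats2, Mob1a, Mob1b, Nf2, Frmd6 or Amotl2, which are 10 of 22183 genes. Poly(A) RNA was sequenced in 5 libraries, each a pool of 4 to 6 whole lenses. The cKO group (2 pools) joined lenses of Yap1 f/f;Cre and Yap1 f/+;Cre mice that were picked for a severe eye phenotype, so a pool can mix both genotypes. The Ctrl group (3 pools) came from littermates with floxed alleles (Yap1 f/f and Yap1 f/+) and no abnormality, and is called WT in the genotype field. Both groups thus carry floxed Yap1. No label names the promoter that drives Cre or the number of animals behind a pool, or says whether Ctrl mice carried Cre.

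The Hippo pathway is a kinase cascade that restrains the co-activator YAP. MST2 and MST1 (encoded by Stk3 and Stk4), bound to the scaffold Salvador (Sav1), phosphorylate the LATS kinases and their MOB1 co-activators, and LATS then phosphorylates YAP, which keeps it out of the nucleus. Merlin (Nf2), the FERM-domain protein FRMD6 and the angiomotin family member AMOTL2 sit upstream, at membranes and junctions, and feed contact and polarity signals into the cascade. In the lens, YAP is known for its part in the epithelium, the anterior cell layer that divides and supplies new fibre cells.

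The libraries held 22047580 to 25762802 expected counts, of which the 16 crystallins took 66.4 and 69.1% in cKO and 71.3 to 73.9% in Ctrl. All 14 listed markers of lens fibres were detected in both groups, with summed levels of 414100 and 509600 CPM (counts scaled to library size after TMM normalization) in cKO and 521300 to 594600 CPM in Ctrl. Of the 14, 4 were lower in cKO at an edgeR adjusted p under 0.05 and 0 were higher. Lgsn fell to 0.0544, Cryga to 0.0566, Crygb to 0.371 and Bfsp1 to 0.396 of the Ctrl level. Yap1 itself had 61 and 92 counts in cKO, against 133 to 155 in Ctrl, and its log2 fold change of -1.08 (SE 0.33) did not pass the threshold of an edgeR adjusted p of 0.05 (adjusted p = 0.0759). Reads of the floxed part cannot be singled out in a gene-level count. In both cKO pools the Y-linked genes Ddx3y and Eif2s3y had 0 counts, against 558 to 854 in the Ctrl pools, so sex and genotype cannot be told apart. Macrophage markers summed to 18.9 and 108 CPM in cKO and 1.37 to 2.88 CPM in Ctrl. Ptprc was at 0 in every Ctrl pool. Of 7 tested macrophage markers 6 were called higher. These 6 passed the filter on low counts only through the cKO pools, so their direction was fixed by the filter. The remaining marker, Cd68, could also pass through Ctrl pools and was not called (edgeR adjusted p = 0.0532). All p-values measure the spread between these pools.

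Of the 10 genes, 3 fell in cKO lenses and none rose. Frmd6 fell most, to 0.0767 of its Ctrl level, and the kinase co-activator Mob1a and the kinase gene Stk4 fell to 0.371 and 0.427 of theirs. Among all 11724 genes tested, 7.73% were lower and 5.76% were higher by the same rule (edgeR quasi-likelihood test, Benjamini-Hochberg adjusted p under 0.05). At an unadjusted p under 0.05, 6 of the 10 were lower and 1 was higher, beside 17.4% and 14.8% of all genes. The median log2 fold change of the 10 was -0.92, beside -0.06 over all tested genes. All 10 passed the filter on low counts, but Sav1 did so only through its cKO counts, so its direction was fixed by the filter. Every cKO pool lay below every Ctrl pool for 6 genes (28.7% of all tested genes did) and above for 1 (Sav1; 22.8% of all did), and 3 genes overlapped.

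Markers of the cell types in and around the lens were compared as well. Those of lens epithelium summed to 1264 and 2587 CPM in cKO 1 and 2, against 1991 to 2284 CPM in Ctrl. That sum was mainly Dkk3 (906 and 1885 CPM in cKO 1 and 2, 1274 to 1495 CPM in Ctrl), which was not called (edgeR adjusted p = 0.998). Of 9 tested epithelial markers 4 were called lower (Pax6, Gja1, Npnt and Cdh1). Counts of Cdh1, which encodes E-cadherin, were 440 to 986 in the Ctrl pools but only 1 and 0 in cKO 1 and 2. Cdh1 thus met the filter through Ctrl alone, so the filter set its direction. Krt8 gave no count in either cKO pool and at most 1 in a Ctrl pool. Markers of corneal epithelium summed to 0 in both cKO pools and to 3.03 to 9.65 CPM in Ctrl, with Krt12, Krt5 and Krt14 at 0 in every pool. The Ctrl sum was mainly Aldh3a1 (2.69 to 8.81 CPM), the 1 tested marker, which was called lower (edgeR adjusted p = 0.0141). Aldh3a1 passed the filter only through its Ctrl counts, which fixed its direction. Iris and ciliary pigment cell markers summed to 2.86 and 0.298 CPM in cKO 1 and 2 and 6.10 to 13.4 CPM in Ctrl, with none of 3 tested called. Endothelial markers summed to 22.9 and 14.3 CPM in cKO 1 and 2 and 6.64 to 11.9 CPM in Ctrl, with none of 7 tested called and Erg at 0 in cKO and at 0 to 1 counts in Ctrl. Fibroblast and pericyte markers summed to 261 and 268 CPM in cKO 1 and 2 and 165 to 232 CPM in Ctrl. That sum was mainly Acta2 (234 and 248 CPM in cKO 1 and 2, 132 to 199 CPM in Ctrl). Acta2 was not called (edgeR adjusted p = 0.172). Of 5 tested, 1 was lower (Pdgfra) and 1 was higher (Col1a1), and each passed the filter only through the group where it was high. In cKO 1 and 2, Dcn had 275 and 0 counts and Lum 28 and 0. In Ctrl, Dcn had 0 to 2 counts and Lum 0. Summed retinal neuron and red blood cell markers overlapped between the groups. The part of these cell types in the lower values of Frmd6 and the other genes was not tested, and in whole lenses fewer cells of a type and less RNA per cell cannot be told apart.

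**Figure D1:**
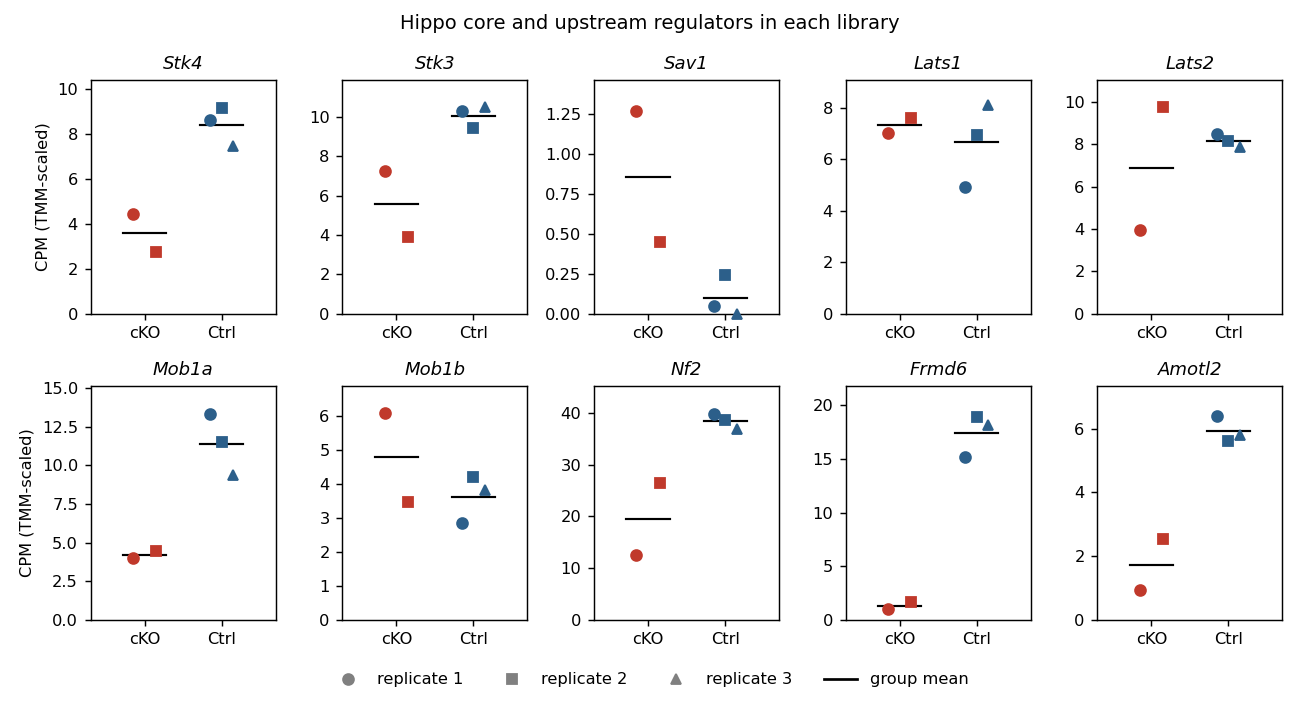
Level of each of the 10 genes in CPM after TMM scaling, with cKO pools in red left of Ctrl pools in blue, symbols for the replicate number and a black line at the group mean. The groups are apart for Frmd6, Amotl2, Mob1a, Nf2, Stk3, Stk4 and Sav1 and overlap for Lats1, Lats2 and Mob1b.

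The upstream regulators are described first. Frmd6 (ENSMUSG00000048285) encodes a FERM-domain protein of cell junctions that activates the pathway in cultured mammalian cells and is the counterpart of Drosophila Expanded. It had 25 and 44 counts in cKO 1 and 2, against 328, 388 and 474 counts in Ctrl 1, 2 and 3. In scaled units the cKO pools had 1.02 and 1.64 CPM and the Ctrl pools 15.2, 18.9 and 18.2 CPM. Thus the higher cKO pool stood at 10.8% of the lowest Ctrl pool. The log2 fold change was -3.70 (SE 0.29, 95% interval -4.42 to -2.99, edgeR adjusted p = 0.00373). Only 2.51% of tested genes were called with a change at or below that value. Per length, Frmd6 was the last of the 10 genes in cKO (0.318 ± 0.139 FPKM; SD, n = 2) and the second in Ctrl (3.54 ± 0.557 FPKM; SD, n = 3). Its call was kept in 12 of 13 alternative analyses, among them those with a lone cKO pool, which is assumed to vary like the controls. Without Ctrl 2 the edgeR adjusted p was 0.0575 at a log2 fold change of -3.64.

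Amotl2 (ENSMUSG00000032531) encodes a junction protein that binds YAP and scaffolds LATS2. It had 23 and 68 counts in cKO 1 and 2 and 138, 115 and 151 counts in Ctrl 1, 2 and 3. The groups did not overlap, at 0.939 and 2.53 CPM in cKO and 5.61 to 6.40 CPM in Ctrl. The log2 fold change of -1.77 (SE 0.46, 95% interval -2.89 to -0.65) missed the threshold (edgeR adjusted p = 0.0542), whereas DESeq2 gave an adjusted p of 0.00632. The other angiomotin genes, looked at after their values were seen, were not called. Amot had 0 and 1 counts in cKO 1 and 2, against 11 to 14 in Ctrl, and passed the filter only through its Ctrl counts, which fixed its direction. Amotl1 had 53 and 98 counts in cKO, against 31 to 49 in Ctrl (log2 fold change 0.65, SE 0.42, edgeR adjusted p = 0.34).

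Nf2 (ENSMUSG00000009073) encodes merlin, the membrane-linked tumour suppressor that recruits LATS for activation. It was the most abundant of the 10 per length in both groups. Its FPKM was 3.86 and 7.86 in cKO 1 and 2, against FPKM of 9.11, 9.25 and 9.27 for Ctrl 1, 2 and 3. The Ctrl pools were close together while the cKO pools were far apart. Its count was 308 and 708 in cKO, against 791 to 963 in Ctrl. The log2 fold change of -0.98 (SE 0.31, 95% interval -1.73 to -0.23) did not pass (edgeR adjusted p = 0.0847), and it was -1.61 with cKO 1 as the lone cKO pool and -0.56 with cKO 2 (edgeR adjusted p = 0.000346 and 0.0184, where the lone pool is assumed to vary like the controls).

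**Figure D2:**
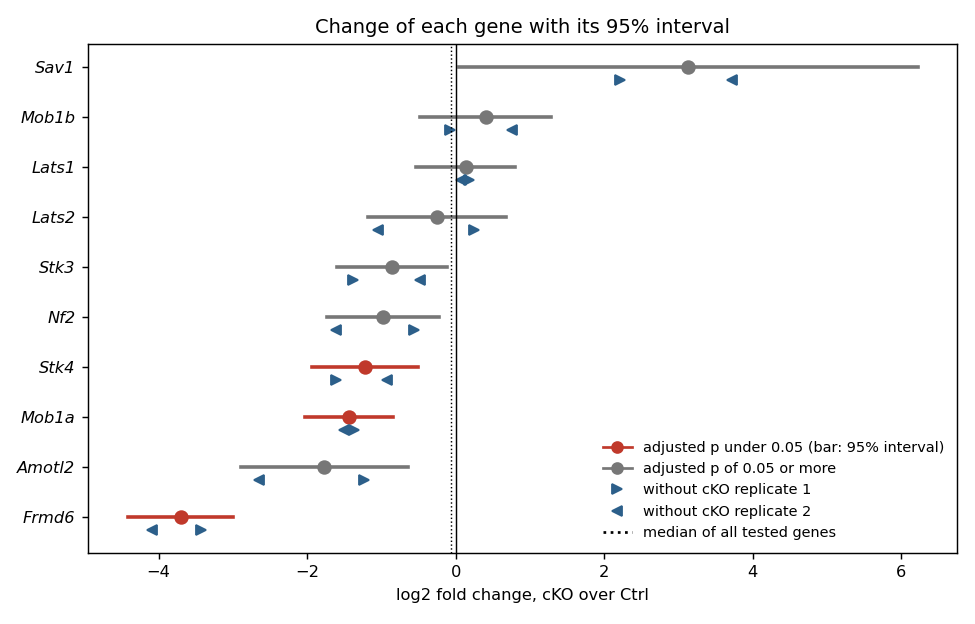
Log2 fold change of each of the 10 genes, cKO over Ctrl, with its 95% interval as a bar. Red marks Frmd6, Mob1a and Stk4, which passed the threshold, triangles give the change with 1 cKO pool left out, and the dotted line is the median of all tested genes at -0.06.

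The kinases upstream of LATS had lower values in cKO for both paralogues. Stk4 (ENSMUSG00000018209) encodes MST1 and had 108 and 74 counts in cKO 1 and 2, against 185, 187 and 194 counts in Ctrl 1, 2 and 3. Its levels of 4.41 and 2.76 CPM in cKO lay below the 7.45 to 9.13 CPM of the Ctrl pools, with a log2 fold change of -1.23 (SE 0.29, 95% interval -1.94 to -0.51, edgeR adjusted p = 0.0446). Stk3 (ENSMUSG00000022329) encodes MST2 and had 177 and 105 counts in cKO 1 and 2 and 222, 193 and 273 counts in Ctrl 1, 2 and 3. It also did not overlap between the groups (7.23 and 3.91 CPM in cKO, 9.42 to 10.5 CPM in Ctrl), but its log2 fold change of -0.86 (SE 0.30, 95% interval -1.59 to -0.12) did not pass (edgeR adjusted p = 0.112). Summed per length, the pair stood at 3.66 and 2.60 FPKM in cKO 1 and 2, below the 4.62 to 5.21 FPKM of the Ctrl pools.

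Sav1 (ENSMUSG00000021067), whose product Salvador links MST to LATS, was near the limit of detection in control lenses. It had 31.0 and 12.2 expected counts in cKO 1 and 2, against 1.08, 4.88 and 0 in Ctrl 1, 2 and 3. The exact 95% Poisson intervals of the rounded counts, which cover counting error only, were 21.1 to 44.0 and 6.20 to 21.0 counts in cKO and reached at most 11.7 counts in Ctrl, so cKO 2 and Ctrl 2 were not separated by counting error. The log2 fold change of 3.13 had a wide error (SE 1.28, 95% interval 0.04 to 6.22) and did not pass (edgeR adjusted p = 0.151). Since the filter fixed its direction, these values describe Sav1 and do not test for a higher level.

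The LATS kinases, which phosphorylate YAP directly, showed no change that passed. Lats1 (ENSMUSG00000040021) had 172 and 204 counts in cKO 1 and 2 and 106, 142 and 211 counts in Ctrl 1, 2 and 3, with both cKO pools inside the Ctrl range. Its log2 fold change was 0.14 (SE 0.28, edgeR adjusted p = 0.779), with a 95% interval of -0.53 to 0.80 that leaves room for changes up to 1.75-fold. Lats2 (ENSMUSG00000021959) had 97 and 262 expected counts in cKO 1 and 2 and 183, 167 and 205 counts in Ctrl 1, 2 and 3. The 3 Ctrl pools lay close together for Lats2 (7.87 to 8.49 CPM), and the cKO pools lay on either side of them, cKO 1 at 3.96 CPM and cKO 2 at 9.76 CPM. Its log2 fold change was -0.25 (SE 0.38, 95% interval -1.18 to 0.68, edgeR adjusted p = 0.703). It was -1.04 without cKO 2 and 0.24 without cKO 1, where the lone cKO pool is assumed to vary like the controls.

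MOB1 proteins bind and activate LATS, and of their 2 genes only Mob1a was called. Mob1a (ENSMUSG00000043131) had 98 and 119 counts in cKO 1 and 2, against 287, 236 and 244 counts in Ctrl 1, 2 and 3. The cKO pools were alike at 4.00 and 4.43 CPM and lay below the Ctrl pools at 9.37 to 13.3 CPM, with a log2 fold change of -1.43 (SE 0.24, 95% interval -2.02 to -0.84, edgeR adjusted p = 0.0212). Mob1b (ENSMUSG00000006262) had 149 and 93.0 expected counts in cKO 1 and 2, against 61.0, 86 and 99 in Ctrl 1, 2 and 3. Its groups overlapped at 6.09 and 3.46 CPM in cKO and 2.83 to 4.20 CPM in Ctrl, and the log2 fold change of 0.40 (SE 0.36, 95% interval -0.48 to 1.28) did not pass (edgeR adjusted p = 0.492).

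The calls of Mob1a and Stk4 depended on the setting more than that of Frmd6. Both were kept under each of the 5 other scalings, filters and tests on counts, and lost with the replicate number as a block. Without cKO 1 and without cKO 2, the log2 fold change was -1.37 and -1.505 for Mob1a. For Stk4 it was -1.62 and -0.92. A lone cKO pool is assumed to vary like the controls, so calls from these fits do not show stability. Both were lost with any 1 Ctrl pool left out, where the edgeR adjusted p was 0.0835 to 0.119 for Mob1a and 0.131 to 0.183 for Stk4. Over all genes, 15 to 52 were then called lower. Both were also lost on FPKM, where Mob1a had a difference of -0.49 and Stk4 of -0.38 on the log2(FPKM + 1) scale (limma adjusted p = 0.222 and 0.187). On log2(FPKM + 0.1), which shrinks low values less, they had -0.75 and -0.65 (limma adjusted p = 0.21 and 0.196).

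Mob1a and Stk4 also differed between pools in the transcript length behind their values. Dividing a deposited count by its FPKM and the library total gives the mean transcript length that the authors' quantification used for that gene in that library. For Frmd6 this implied length was 4661 to 4672 bases in all 5 pools, beside 4662 bases for the longest of its 4 transcripts in GENCODE M21. For Mob1a it was 4305 and 2555 bases in cKO 1 and 2 and 4411 or 4412 bases in the Ctrl pools. For Stk4 it was 5231 and 3232 bases in cKO 1 and 2 and 5230 to 5233 bases in the Ctrl pools. The longest annotated transcripts are 4412 bases (Mob1a-202) and 5232 bases (Stk4-201), and both genes also have short annotated transcripts. Mob1a-205 at 749 bases and Stk4-205 at 704 bases are listed as processed transcripts. Mob1a-206 at 371 bases and Stk4-204 at 694 bases are listed as protein-coding. Which transcripts were present in cKO 2 cannot be read from values per gene.

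The short values of Mob1a and Stk4 thus came from 1 pool, cKO 2, and from 119 and 74 counts, and their part in the calls lost on FPKM was not tested. A ratio to the Ctrl median as low as that of Mob1a (0.579) was seen in cKO 2 for 0.492% of the 6704 tested genes with at least 50 counts and 0.5 FPKM in every pool, and one as low as that of Stk4 (0.618) for 0.656%. More genes departed from the Ctrl median length in the cKO pools than in the Ctrl pools. The implied length was shorter by over 1.2-fold for 5.86 and 4.39% of genes in cKO 1 and 2 and for 1.66, 0.999 and 0.776% in Ctrl 1, 2 and 3, whose own median served as the base. It was longer by over 1.2-fold for 2.37 and 3.25% in cKO 1 and 2 and for 0.701, 0.761 and 0.999% in Ctrl 1, 2 and 3. Per length, Mob1a stood at 0.936 and 2.05 FPKM in cKO 1 and 2 and at 2.15 to 2.69 FPKM in Ctrl. Mob1b and Lats2 also lay over 1.2-fold from the Ctrl median in cKO 2. The implied length of Mob1b was 6182 and 4003 bases in cKO 1 and 2 and 4878 to 5463 bases in Ctrl, and that of Lats2 was 4754 and 5191 bases in cKO 1 and 2 and 4117 to 4504 bases in Ctrl.

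**Figure D3:**
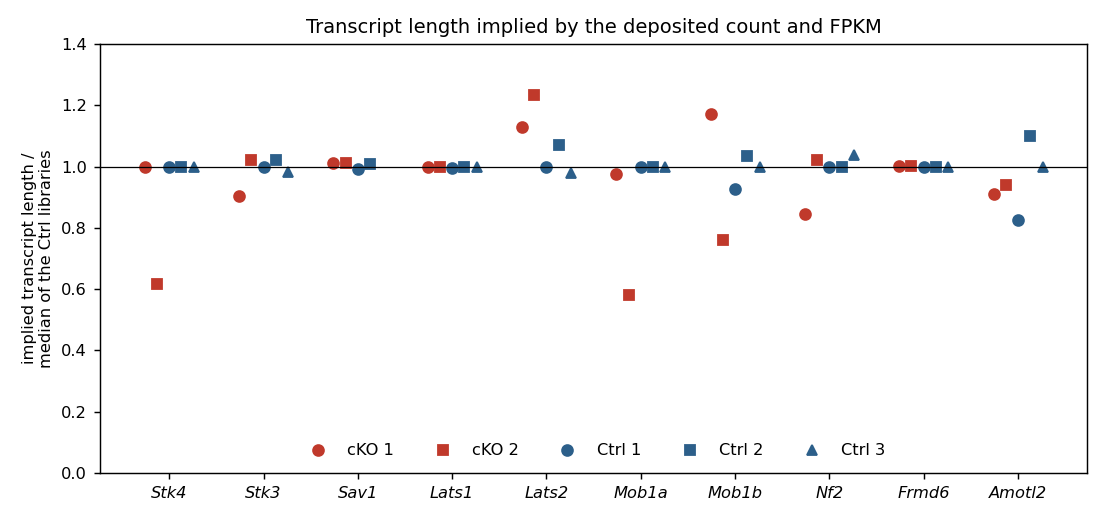
Transcript length implied by the deposited count and FPKM, divided by the median of the Ctrl pools, for each of the 10 genes (cKO in red, Ctrl in blue, symbols for the replicate number; Sav1 has no value in Ctrl 3, where its FPKM is 0). Mob1a and Stk4 stand at 0.579 and 0.618 in cKO 2, while Frmd6 and Lats1 stay near 1 in all pools.

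The core of the pathway holds 3 pairs of paralogues, whose shares within a pair were compared per length. Mob1b made up 51.4 and 33.3% of the summed Mob1b and Mob1a FPKM in cKO 1 and 2, against 16.1, 22.7 and 25.4% in Ctrl 1, 2 and 3. Both cKO pools lay above every Ctrl pool, a difference of means of 20.9 percentage points (42.4 ± 12.8% in cKO and 21.4 ± 4.75% in Ctrl; SD, n = 2 and 3). The exact two-sided permutation test gave p = 0.1, the smallest that the 10 splits allow, and 0.3 adjusted over the 3 pairs. Lats2 made up 46.1 and 64.1% of its pair with Lats1 in cKO 1 and 2 and 63.0 to 74.6% in Ctrl (exact permutation p = 0.2, adjusted 0.3). Stk4 made up 23.2 and 38.9% of its pair with Stk3 in cKO 1 and 2 and 27.6 to 35.0% in Ctrl (exact permutation p = 0.9, adjusted 0.9). Per length, the groups were thus apart for the Mob1 shares and overlapped for the other pairs. Since the length of Mob1a differed in cKO 2, the shares were also taken from counts, where Mob1b made up 60.3 and 43.9% of its pair in cKO 1 and 2 and 17.5 to 28.9% in Ctrl (exact permutation p = 0.1, adjusted 0.3). From counts the Stk4 shares were apart as well, at 37.9 and 41.3% in cKO 1 and 2 and 41.5 to 49.2% in Ctrl (exact permutation p = 0.2, adjusted 0.3), and the Lats2 shares overlapped.

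The deposited FPKM lacks the TMM factors used for CPM (1.01 and 1.18 in cKO 1 and 2, 0.891 to 1.01 in Ctrl). Shares within a pair do not depend on these factors, but sums do, and a factor above 1 lowers the scaled value. The summed level of Mob1b and Mob1a was 1.93 and 3.08 FPKM in cKO 1 and 2 and 2.88 to 3.21 FPKM in Ctrl. Without TMM scaling, cKO 2 lay inside the Ctrl range per length, and its place with that scaling was not computed. In counts the sum was 247 and 212 in cKO 1 and 2, below the 322 to 348 of the Ctrl pools. The summed level of the LATS pair was 1.82 and 3.47 FPKM in cKO 1 and 2 and 2.41 to 3.07 FPKM in Ctrl. Without TMM scaling, cKO 1 thus lay below and cKO 2 above the Ctrl range. The place of cKO 2 with that scaling was not computed.

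**Figure D4:**
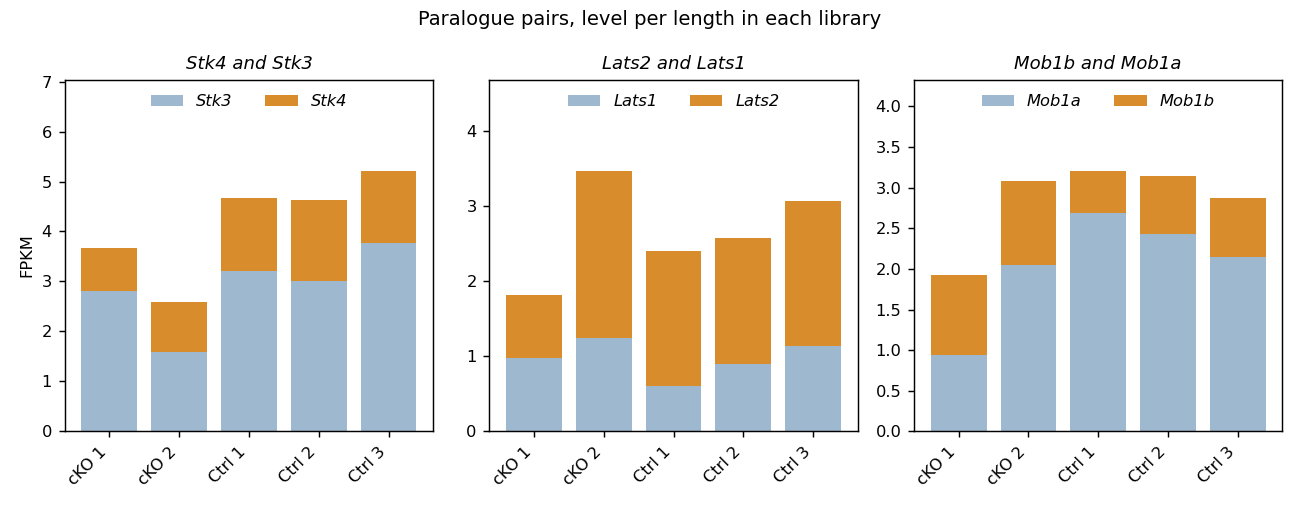
Deposited FPKM of each paralogue pair in each library, stacked, with cKO pools left of Ctrl pools. The orange share (Mob1b) of the Mob1 pair is 51.4 and 33.3% in cKO and 16.1 to 25.4% in Ctrl, whereas the shares of the other pairs overlap between the groups.

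Near-identical paralogues can exchange reads, so the coding sequences of each pair were compared in GENCODE M21. The longest stretch that both genes of a pair share is shown, because a read that lies wholly inside it could not be placed. Positions are counted from 1 at the first base of the coding sequence.
Mob1b (334 to 353) and Mob1a (319 to 338), 20 bases: attaagtgttctgcaccaaa
Stk4 (295 to 317) and Stk3 (286 to 308), 23 bases: tggattgttatggagtactgtgg
Lats2 (2096 to 2117) and Lats1 (2330 to 2351), 22 bases: tgtactttgtgatggactacat
Each of these runs is far shorter than a read. The untranslated parts of the transcripts and other genes were not compared, so exchange of reads there was not tested. The coding sequences were identical at 77.9% of aligned positions for the Mob1 pair, 72.0% for the Stk pair and 58.1% for the Lats pair. The deposited counts of Stk3, Stk4, Lats1, Mob1a, Nf2, Frmd6 and Amotl2 were whole numbers in every pool. Lats2, Mob1b and Sav1 had some values that were not whole, such as 12.2 expected counts of Sav1 in cKO 2.

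TEAD factors, the DNA-binding partners of YAP, recognise the letters GGAATG, and Lats2 and Amotl2 are known in human cells as YAP targets that feed back on the pathway. The motif was searched on both strands (GGAATG or CATTCC, no overlap with another motif) in RefSeq promoter windows of the build GRCm38.p6, from 250 bases before to 50 bases after a gene's start. Of the 10 genes, 9 were in that table with 11 windows, and 4 of the 11 held the motif, beside 14.7% of all 32851 windows. The matches began 65 bases before the start of Amotl2, 106 before that of Sav1 and 209 before that of Mob1a, and 4 bases after that of Lats2. The 250 bases before the start are shown for the genes with a match there, and 30 bases around the match for Lats2, 5′ to 3′ on the gene's strand, with the motif in capitals as read on that strand.
Amotl2 chr9:102717554-102717803, plus strand: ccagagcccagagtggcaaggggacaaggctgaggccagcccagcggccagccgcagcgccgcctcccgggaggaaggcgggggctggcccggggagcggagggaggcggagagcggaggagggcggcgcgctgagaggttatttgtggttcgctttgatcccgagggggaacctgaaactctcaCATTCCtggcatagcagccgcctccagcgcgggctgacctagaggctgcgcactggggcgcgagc
Mob1a chr6:83325789-83326038, plus strand: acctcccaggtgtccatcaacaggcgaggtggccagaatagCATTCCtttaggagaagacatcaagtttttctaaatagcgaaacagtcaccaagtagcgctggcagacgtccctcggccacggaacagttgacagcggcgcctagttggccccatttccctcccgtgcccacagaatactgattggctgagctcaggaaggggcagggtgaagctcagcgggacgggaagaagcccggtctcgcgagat
Sav1 chr12:69987003-69987252, minus strand: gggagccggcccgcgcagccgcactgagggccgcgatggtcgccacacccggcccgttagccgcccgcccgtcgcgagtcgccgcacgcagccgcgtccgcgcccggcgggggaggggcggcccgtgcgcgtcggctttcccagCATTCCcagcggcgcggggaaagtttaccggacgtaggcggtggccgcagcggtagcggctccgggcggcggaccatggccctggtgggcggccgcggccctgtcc
Lats2 chr14:57746102-57746131, minus strand: cgtgacgcccgtGGAATGccaacaatgtag
Of the 4 genes with a match, Mob1a fell, and Amotl2, Sav1 and Lats2 were not called. The windows of Frmd6 and Stk4, which also fell, do not hold these letters. Factor binding was not measured in these lenses.

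The cKO pools also differed from each other, in both directions. Frmd6, Amotl2, Nf2, Lats1, Lats2 and Mob1a were lower in cKO 1 than in cKO 2, and Stk3, Stk4, Sav1 and Mob1b were higher there. As a ratio, the gap was widest for Sav1 (1.27 and 0.447 CPM in cKO 1 and 2), Amotl2 (0.939 and 2.53 CPM) and Lats2 (3.96 and 9.76 CPM). With 1 pool on each side, no test of this difference was made. The summed markers of lens epithelium were also lower in cKO 1 than in cKO 2, as given above, a sum carried mainly by Dkk3 (906 and 1885 CPM in cKO 1 and 2). Sfrp1 (264 and 573 CPM), Itga6 (64.8 and 108 CPM) and Npnt (11.0 and 11.1 CPM) were lower in cKO 1 as well. Higher in cKO 1 were Pax6 (11.0 and 8.79 CPM), Foxe3 (3.84 and 0.298 CPM), Gja1 (1.47 and 0.745 CPM), Krt18 (0.980 and 0 CPM) and Cdh1 (1 and 0 counts). Krt8 was at 0 in both. Their part in these gaps was not tested.

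Per length the order of the 10 genes differed between the groups. In cKO it ran Nf2, Stk3, Lats2, Mob1a, Lats1, Mob1b, Stk4, Amotl2, Sav1 and Frmd6, and in Ctrl it ran Nf2, Frmd6, Stk3, Mob1a, Lats2, Amotl2, Stk4, Lats1, Mob1b and Sav1. Mean levels spanned 0.318 to 5.86 FPKM in cKO and 0.0353 to 9.21 FPKM in Ctrl. Ranges over pools were then compared between neighbours in each order. In cKO only those of Nf2 and Stk3 and of Stk4 and Amotl2 did not overlap. In Ctrl, the ranges of Frmd6 and Stk3 overlapped, as did those of Lats2 with Amotl2, Amotl2 with Stk4, and Lats1 with Mob1b. Among all genes with a value above 0, Frmd6 lay at percentile 17.4 and 21.6 in cKO 1 and 2 and at 66.0 to 69.6 in Ctrl, and Nf2 at 65.2 and 74.1 in cKO 1 and 2 and at 82.3 to 83.8 in Ctrl.

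Around the core, 70 further pathway genes were listed by role, and 59 of them were tested. Of these, 5 were lower and 2 were higher in cKO, with a median log2 fold change of -0.26, beside calls for 13.5% of all genes. The Hippo signaling pathway in the deposited table's own KEGG column, which holds 8 of the 10 genes, had 8 lower and 9 higher of 117 tested, with a median log2 fold change of -0.25. Among junction and apical scaffolds (13 tested), Wwc2, a relative of the KIBRA scaffold that activates LATS, fell, with a log2 fold change of -1.88 (edgeR adjusted p = 0.0169, SE 0.29). Its levels were 1.76 and 2.50 CPM in cKO 1 and 2 and 7.10 to 8.25 CPM in Ctrl. Both cKO pools lay below every Ctrl pool.

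Kinases that act on MST or LATS from outside the core (9 tested) held 2 of the lower genes. Map4k5 had a log2 fold change of -1.22 (edgeR adjusted p = 0.0203, SE 0.20), with 10.3 and 7.41 CPM in cKO 1 and 2 and 19.8 to 21.2 CPM in Ctrl. Map4k3 had one of -1.09 (SE 0.24, edgeR adjusted p = 0.0362), with 7.11 and 7.15 CPM in cKO 1 and 2 and 11.9 to 18.4 CPM in Ctrl. Products of the MAP4K family phosphorylate LATS in parallel to MST. The median log2 fold change of the 9 was -1.09.

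Ctnna1 encodes alpha-catenin, which tethers YAP at adherens junctions, and fell, with a log2 fold change of -0.79 (edgeR adjusted p = 0.0283, SE 0.15), with 55.1 and 44.2 CPM in cKO 1 and 2 and 81.6 to 89.2 CPM in Ctrl. The 2 higher genes were Fjx1, a relative of the Drosophila Four-jointed kinase that acts on Fat cadherins (log2 fold change 1.60, SE 0.39, edgeR adjusted p = 0.0451), and Tead1 among the effectors (log2 fold change 2.18, SE 0.32, edgeR adjusted p = 0.0148). Fjx1 stood at 10.3 and 16.1 CPM in cKO 1 and 2 and at 2.53 to 5.71 CPM in Ctrl. Tead1 stood at 5.47 and 7.82 CPM in cKO 1 and 2 and at 1.32 to 1.62 CPM in Ctrl.

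The inhibitors and side branches gave no calls. Among the 9 tested genes of STRIPAK, the phosphatase complex that keeps MST inactive, none passed the threshold, and log2 fold changes ran from -0.40 to 0.47. Ppp2r1a, its scaffold subunit, stood at 60.7 and 68.5 CPM in cKO 1 and 2 and at 65.4 to 69.0 CPM in Ctrl. None of the 4 tested RASSF genes, whose products bind MST, of the 3 Ajuba family genes, whose LIM proteins bind and restrain LATS, or of the 6 other MOB and NDR kinase genes passed, with median log2 fold changes of 0.24, -0.76 and -0.14. The most abundant of each per length were Rassf1 (188 and 403 counts in cKO 1 and 2, 194 to 263 counts in Ctrl), Limd1 (27.1 and 17.7 CPM in cKO 1 and 2, 22.0 to 23.1 CPM in Ctrl) and Mob2 (23.1 and 15.7 CPM in cKO 1 and 2, 18.4 to 19.1 CPM in Ctrl). All 3 overlapped between the groups.

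**Figure D5:**
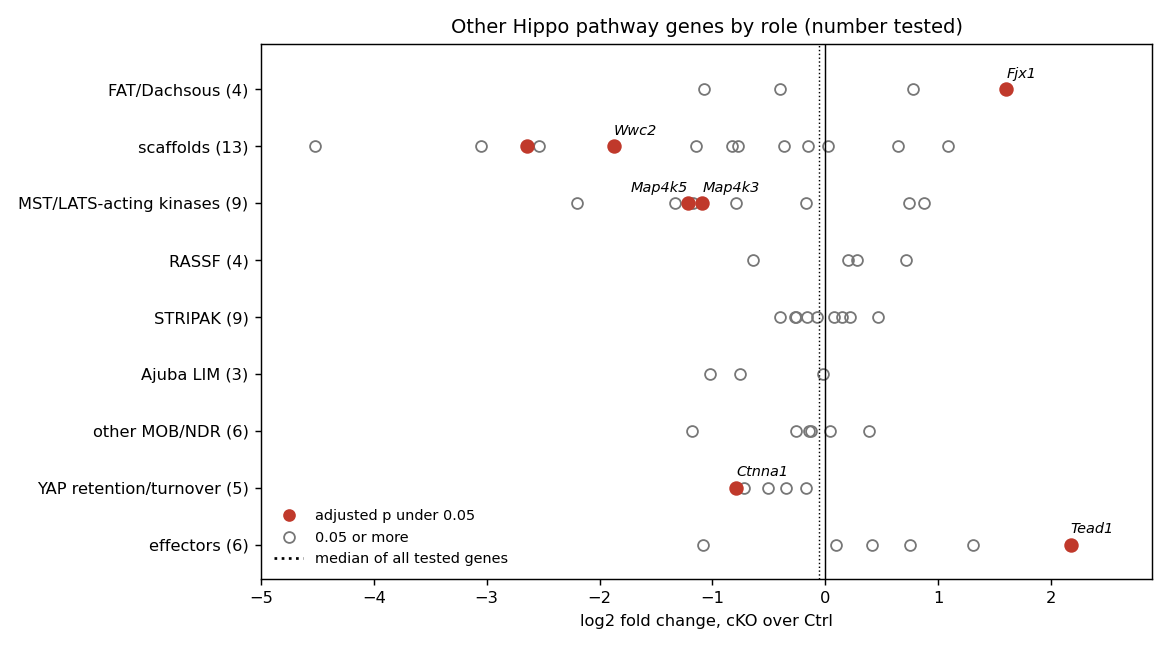
Log2 fold change, cKO over Ctrl, of the 59 tested pathway genes outside the core, grouped by role with the number tested in brackets. Filled red points passed the threshold (5 lower, 2 higher), with the names of those described in the text, and the dotted line is the median of all tested genes.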

How the data were processed

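Whole lenses of P14 mice were pooled, 4 to 6 per library, and poly(A) RNA was sequenced (2 cKO and 3 Ctrl libraries). The authors deposited 1 table with an expected count (an estimated count that need not be whole) and an FPKM per gene and library. FPKM was used as deposited, without TMM scaling. Per the submitters' processing notes, the build was GRCm39 and the tools included Trimmomatic 0.18.0 and RSEM. Aligner, annotation release and strand setting were not given in the sources used here. Of the values above 0, 6.03 to 7.47% per library were not whole. Expected counts were rounded, genes with low counts were dropped (filterByExpr, minimum count 10, minimum total 15), and 11724 of 22183 genes were tested with edgeR 4.0.16 (TMM scaling, quasi-likelihood F-test, all 5 libraries, no covariates, Benjamini-Hochberg over all tested genes, threshold 0.05) in R 4.3.3. A count of 3 corresponds to 0.112 and 0.123 CPM in cKO and 0.115 to 0.146 CPM in Ctrl. The alternatives were DESeq2 1.42.0, other scalings, no filter, limma 3.58.1 on log2(FPKM + 1) and log2(FPKM + 0.1), a replicate block and each library left out. The named genes are all 10 members, with further pathway genes named where they passed the threshold or were the most abundant of a list with none; Amot and Amotl1 were added after their values were seen. A further called pathway gene is not reported here. The members and lists were chosen with earlier results of these data known. Promoter windows were taken from RefSeq and transcripts from GENCODE M21, both on GRCm38, so no coordinate of the authors' build is given.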

Additional observations from a re-analysis of the deposited data

How the results depend on the processing

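Of the 10 genes, 3 were lower and 0 higher in the reported analysis, beside 5 and 2 of the 59 other pathway genes and 906 and 675 of all genes. DESeq2 called 5 of the 10 lower (Nf2 and Amotl2 in addition), 13 other pathway genes lower, and 1521 genes lower and 1209 higher in all. Scaling by total counts only, which moved the median log2 fold change of all genes to 0.16 against -0.06, left 3 other pathway genes lower and called 1234 genes higher in all. On log2(FPKM + 1), with a median of 0.08, 1 of the 10 was lower (Frmd6) and 1380 genes were higher in all. On log2(FPKM + 0.1), with a median of 0.11, 1 was lower (Frmd6), 1 was higher (Sav1, at or near 0 in Ctrl) and 1402 genes were higher in all.

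With the replicate number as a block, 1 of the 10 was lower (Frmd6, log2 fold change -3.70, edgeR adjusted p = 0.022), 0 and 0 other pathway genes were called, and 107 genes were lower and 68 higher in all. The numbers are shared by 2 pairs of pools only. Deviations of same-numbered pools correlated at 0.11 and -0.08, and those of cKO 2 and Ctrl 3 at 0.15. The deviations of the 2 cKO pools from their mean mirror each other, so this check cannot decide on pairing. Pairing was not established. Stk4 had -1.34 (edgeR adjusted p = 0.196) and Mob1a -1.55 (edgeR adjusted p = 0.109) under the block.

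With 1 library left out in turn, 0 to 6 of the 10 were lower and 0 to 1 higher, 0 to 21 other pathway genes were lower and 0 to 6 higher, and 15 to 2964 genes were lower and 6 to 2197 higher in all. The fewest calls came without Ctrl 2 and the most without cKO 2, where the lone cKO pool is assumed to vary like the controls; without Ctrl 2 none of the 10 was called. Directions turned for Lats1 without Ctrl 1 (-0.0064, and up to 0.35 without Ctrl 3), for Lats2 by total counts only (0.012) and without cKO 1 (0.24, against -1.04 without cKO 2), and for Mob1b without cKO 1 (-0.073, against 0.75 without cKO 2). Of these values only that of Lats2 without cKO 2 was called. The Mob1b share stayed higher in cKO by at least 11.9 percentage points with any 1 library left out. Levels under the floor of 3 counts, as for Sav1 in Ctrl 1 and 3, cannot be ranked at this depth.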
